A study of Homo sapiens with 4 samples.

Results

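The 9 genes described here encode receptors through which myeloid and erythroid cells receive growth signals, taken by symbol from the 32673 genes of the expression table: CSF2RA, CSF2RB, IL3RA, IL5RA, CSF1R, CSF3R, KIT, FLT3 and EPOR. Their transcripts were measured by RNA sequencing in TF1-BA cells, made by infecting TF1, a human erythroleukaemia line, with a BCR-ABL retrovirus and sensitive to imatinib, and in TF1-BAR cells, an imatinib-resistant line derived from them by continuous exposure to the drug. There were 2 libraries per line (replicates 1 and 2), made from 10000000 cells per replicate. Both lines carry BCR-ABL and grew with 10% foetal bovine serum and granulocyte-macrophage colony-stimulating factor (GM-CSF), at 2 ng/mL by the sample labels and at a higher concentration by the methods of the paper. By the labels, 2 μM imatinib was present while the resistant cells were grown, so that exposure to the drug and resistance cannot be told apart. The resistant libraries are titled as vector libraries, and the effect of a vector, if there was one, is part of every difference. Neither the labels nor the methods state whether the replicates were separate cultures, so the p-values measure only the spread between these libraries, which may be technical.

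Cytokine receptors of this kind fall into 2 families. GM-CSF, interleukin 3 and interleukin 5 each bind a private alpha chain, the products of CSF2RA, IL3RA and IL5RA, which then pairs with a shared beta chain, the product of CSF2RB, that carries the signal through the kinase JAK2 to the transcription factor STAT5. The erythropoietin receptor EPOR and the granulocyte colony-stimulating factor receptor CSF3R belong to the same family but signal as homodimers. KIT, CSF1R and FLT3 are receptor tyrosine kinases, with a kinase domain of their own, for stem cell factor, macrophage colony-stimulating factor and FLT3 ligand. TF1 cells are known for their need for GM-CSF or interleukin 3, and BCR-ABL activates STAT5 without a cytokine. Imatinib also inhibits KIT and CSF1R.

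The start regions of 3 members are shown from RefSeq (GRCh38.p14), each from 250 bases before to 50 bases after an annotated start, 5′ to 3′ on the strand of the gene. They are KIT and CSF1R, the genes that passed both thresholds below, the latter with both of its listed starts, and IL3RA, shown only for its motifs, since its window alone holds matches to both the GATA and the STAT motif. Capitals mark matches on either strand to GATAA (the core of a GATA site), TTCNNNGAA (a STAT site) and TGTGGT (a RUNX site), which did not overlap one another in these windows.
KIT, chr4:54657707-54658006, plus strand: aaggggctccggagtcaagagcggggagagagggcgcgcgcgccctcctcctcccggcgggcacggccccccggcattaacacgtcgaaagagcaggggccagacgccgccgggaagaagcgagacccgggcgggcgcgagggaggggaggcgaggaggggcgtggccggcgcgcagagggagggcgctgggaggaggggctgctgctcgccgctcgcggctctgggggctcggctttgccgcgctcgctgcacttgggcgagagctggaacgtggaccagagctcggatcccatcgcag
CSF1R upstream start, chr5:150113316-150113615, minus strand: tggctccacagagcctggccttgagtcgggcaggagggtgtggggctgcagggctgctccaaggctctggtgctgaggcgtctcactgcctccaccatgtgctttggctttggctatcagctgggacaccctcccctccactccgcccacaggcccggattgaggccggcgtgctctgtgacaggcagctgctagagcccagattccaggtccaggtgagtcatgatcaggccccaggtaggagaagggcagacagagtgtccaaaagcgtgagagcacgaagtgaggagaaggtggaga
CSF1R downstream start, chr5:150086505-150086804, minus strand: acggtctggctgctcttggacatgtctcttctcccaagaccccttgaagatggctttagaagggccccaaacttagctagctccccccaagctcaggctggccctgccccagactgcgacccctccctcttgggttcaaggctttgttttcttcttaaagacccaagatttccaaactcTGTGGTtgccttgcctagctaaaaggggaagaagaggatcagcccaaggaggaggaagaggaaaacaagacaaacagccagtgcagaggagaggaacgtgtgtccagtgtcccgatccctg
IL3RA, chrX:1336535-1336834, plus strand: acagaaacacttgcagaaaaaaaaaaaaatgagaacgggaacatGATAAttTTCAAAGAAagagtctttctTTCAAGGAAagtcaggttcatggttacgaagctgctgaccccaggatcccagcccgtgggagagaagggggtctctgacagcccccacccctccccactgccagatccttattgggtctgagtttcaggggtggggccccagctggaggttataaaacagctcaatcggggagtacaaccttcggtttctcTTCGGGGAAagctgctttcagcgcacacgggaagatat
The KIT window has a GC content of 74.3% and held 0 of these 3 motifs. The upstream CSF1R window (62.3% GC) held 0 and the downstream window (54.0% GC) held 1 RUNX match. The IL3RA window held 3 STAT matches and 1 GATA match. The table had 10 windows for 8 of the 9 genes, without CSF2RB. A GATA match was found in 3 of the 10, those of IL3RA, IL5RA and EPOR, a STAT match in 1 and a RUNX match in 2. Of all 35116 windows in the table, 22.7% held the GATA motif, 7.66% the STAT motif and 13.1% the RUNX motif. The ETS core GGAA and the E-box CANNTG were also searched and were found in 10 and 9 of the 10 windows, and in 95.5% and 68.7% of all. A match is a description of the letters, and the absence of one says nothing about a factor.

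Among the 9 members, KIT had the clearest difference between the lines, and its transcript was 2.19 times as abundant in the TF1-BAR cells. CSF1R was 4.91 times as abundant, but at a level near the lower limit of the test. None of the 4 genes of the GM-CSF, interleukin 3 and interleukin 5 receptors passed the thresholds, and FLT3 was nearly absent. Expression was given as FPKM, fragments scaled to transcript length and library size, and compared by limma as log2(FPKM + 0.5) among 15519 genes whose mean reached 0.5 FPKM. A gene was called differentially expressed at a log2 fold change of 1 or more in either direction with a Benjamini-Hochberg adjusted p under 0.05. Of the 9 members, 8 were tested, and 2 (KIT and CSF1R) were differentially expressed, both higher in the TF1-BAR cells. CSF1R entered the test only through its level in the TF1-BAR cells, since its mean in the TF1-BA cells was below 0.5 FPKM, so its place in the count and in the members' median follows in part from the filter. Of all genes tested, 4.75% were called by this rule, 474 higher (3.05%) and 263 lower, or 365 higher and 332 lower after quantile normalization. By the adjusted p alone the same 2 members passed, against 26.9% of all genes. The median log2 fold change was 0.28 over the 8 members and 0.066 over all genes tested. For 7 of the 8, all but IL3RA, the libraries of the lines did not overlap, as for 69.3% of the genes tested, and 5 of them were higher, as were 40.9% of all genes.

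CSF2RB lies on chromosome 22 of GRCh38 from 36913628 to 36940449 (ENSG00000100368). It had 47.7 and 44.9 FPKM in the TF1-BA libraries and 59.1 and 53.2 FPKM in the TF1-BAR libraries, the higher level in both resistant libraries. Its log2 fold change of 0.27 (standard error 0.0782, 95% interval 0.072 to 0.47) had an adjusted p of 0.0592 by limma. The unprocessed pseudogene CSF2RBP1, 10.1 kb from CSF2RB, had 7.23, 6.61, 11.0 and 14.6 FPKM in the same order of libraries. Its log2 fold change was 0.83 (adjusted p = 0.0198 by limma), and its part in the CSF2RB difference was not tested. CSF2RA (ENSG00000198223), the GM-CSF-binding chain, had 7.90 and 8.07 FPKM in the TF1-BA libraries and 6.64 and 7.28 FPKM in the TF1-BAR libraries, from 401 to 546 fragments. Both resistant libraries were below both sensitive ones, but the log2 fold change of −0.19 (standard error 0.0823, 95% interval −0.40 to 0.025) had an adjusted p of 0.155. The fit thus leaves room for a decrease of up to 0.40 on the log2 scale and for a negligible increase.

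IL3RA (ENSG00000185291), which encodes the interleukin 3-binding chain CD123, had 16.4 and 16.8 FPKM in the TF1-BA libraries. It had 13.8 and 16.6 FPKM in the TF1-BAR libraries. The second resistant library lay between the sensitive ones and only the first was lower, so the lines overlapped. The log2 fold change was −0.13 (95% interval −0.39 to 0.14, adjusted p = 0.392 by limma). It ranged from −0.26 without TF1-BAR replicate 2 to −0.0019 without TF1-BAR replicate 1. IL5RA (ENSG00000091181), the interleukin 5-binding chain of eosinophils and basophils, had the lowest ratio of the 8 members tested, 0.666. It had 3.75 and 3.11 FPKM in the TF1-BA libraries and 2.11 and 2.46 FPKM in the TF1-BAR libraries, from 447, 317, 219 and 261 fragments. The lines did not overlap, and limma estimated a log2 fold change of −0.50 (standard error 0.132, 95% interval −0.84 to −0.16), with an adjusted p of 0.0501 on the edge of the threshold. Under 16 other settings the adjusted p of IL5RA ranged from 0.00378 to 0.240, and 7 were under 0.05. In GENCODE 44, 150 bases (2.27%) of the IL5RA exons are shared with CNTN4-AS1 on the same strand, and fragments there cannot be told apart.

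KIT (ENSG00000157404) lies on chromosome 4 from 54657918 to 54740715. It had 28.4 and 25.4 FPKM in the TF1-BA libraries, from 2855 and 2184 fragments, and 58.7 and 59.3 FPKM in the TF1-BAR libraries, from 5143 and 5306 fragments. The resistant libraries were nearly equal, and both stood far above the sensitive ones. The means were 26.9 ± 2.16 FPKM (SD, n = 2) in the TF1-BA cells and 59.0 ± 0.482 FPKM (n = 2) in the TF1-BAR cells. The log2 fold change was 1.12 (standard error 0.0768, 95% interval 0.92 to 1.32, adjusted p = 0.00409 by limma). It stayed between 1.03 and 1.20, with an adjusted p of at most 0.0350, under all 16 other settings. In a culture, more RNA per cell and more cells with the transcript cannot be told apart.

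CSF1R (ENSG00000182578) lies on chromosome 5 from 150053291 to 150113372, a span that covers both starts shown above, and its level is the sum over both. It had 0.215 and 0.326 FPKM in the TF1-BA libraries, from 20 and 26 fragments, and 1.34 and 1.32 FPKM in the TF1-BAR libraries, from 109 in each. The level thus remained low in both lines, and the resistant libraries lay above the sensitive ones. The log2 fold change was 1.25 (standard error 0.182, 95% interval 0.78 to 1.72, adjusted p = 0.0124 by limma). The added 0.5 FPKM is larger than the level in the TF1-BA cells, and the log2 fold change was 0.88 with 1 FPKM added, 1.96 with 0.1 FPKM added and 2.32 with limma voom on the fragments behind the FPKM. The call was lost with 1 FPKM added, where the adjusted p was 0.0118 but the fold change fell short. It was also lost without TF1-BA replicate 1 (adjusted p = 0.0658), without TF1-BA replicate 2 (0.0554) and without TF1-BAR replicate 2 (0.0617). In those fits the lone library left of a line is assumed to vary like the other line. The processed pseudogene RPL7P1 lies inside the CSF1R gene without sharing exon bases, and had 164, 181, 218 and 242 FPKM in the same order of libraries, a log2 fold change of 0.41 (adjusted p = 0.0263). Its part in the CSF1R difference was not tested.

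FLT3 (ENSG00000122025), a receptor of early progenitors, had 1 fragment in TF1-BA replicate 1 and 0 in each of the other libraries. Each library thus lay under the limit of 3 fragments that a count of 0 allows, which is at most 0.0466 FPKM for this gene. FLT3 was below the filter on low values and was not tested.

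CSF3R (ENSG00000119535), the granulocyte colony-stimulating factor receptor, was also low. It had 0.50 and 0.606 FPKM in the TF1-BA libraries and 1.02 and 1.03 FPKM in the TF1-BAR libraries, from 76 and 79 against 136 and 139 fragments. Both resistant libraries were higher, by a ratio of means of 1.85, but at a log2 fold change of 0.54 (standard error 0.167, 95% interval 0.10 to 0.97) the adjusted p was 0.0727. Limma voom put CSF3R at 0.90, adjusted p = 0.00133. EPOR (ENSG00000187266), the receptor of red cell precursors, had 20.6 and 22.9 FPKM in the TF1-BA libraries and 24.7 and 28.5 FPKM in the TF1-BAR libraries, from 1089 to 1409 fragments. The libraries did not overlap, and the log2 fold change was 0.28 (standard error 0.0997, 95% interval 0.024 to 0.54, adjusted p = 0.0977). The intervals of CSF3R and EPOR exclude 0 before adjustment over all genes, so a p above the threshold does not show that the lines had equal levels.

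By limma voom, an alternative chosen after seeing the data, 6 of the 8 members passed an adjusted p of 0.05, as did 37.9% of all genes tested. These were KIT, CSF1R, CSF3R, CSF2RB and EPOR, all higher, and IL5RA, lower. Under both thresholds the same fit called KIT and CSF1R, against 7.34% of all genes.

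**Figure D1:**
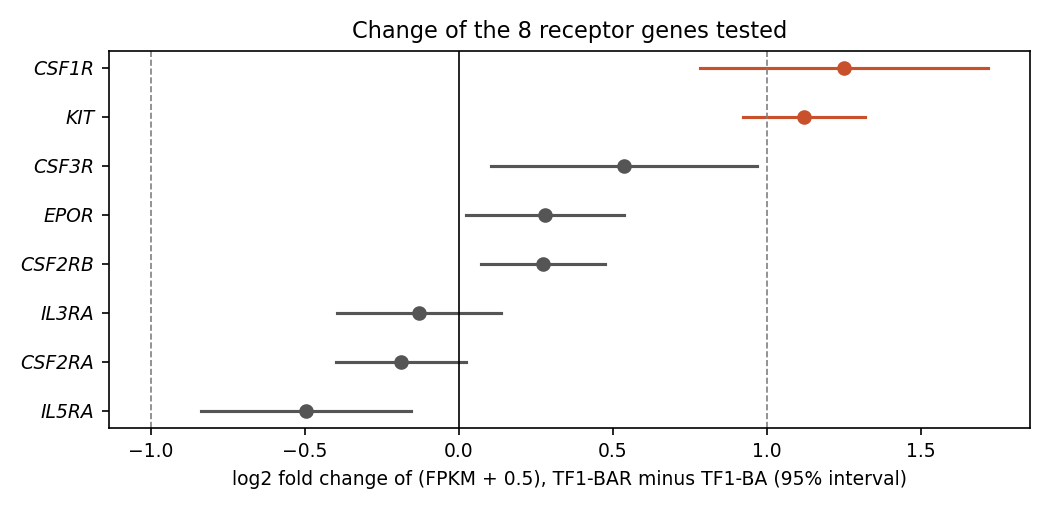
log2 fold change of (FPKM + 0.5), TF1-BAR minus TF1-BA, of the 8 receptor genes tested, with 95% intervals from limma that are not adjusted for multiple tests; orange marks the genes that passed both thresholds and dashed lines a log2 fold change of 1 in either direction. The changes run from −0.50 for IL5RA to 1.25 for CSF1R.

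The order of the receptors by FPKM, which is scaled to transcript length, changed at its top and its bottom. In the TF1-BA cells CSF2RB had the highest level (46.3 ± 2.02 FPKM, SD, n = 2), followed by KIT, EPOR (21.7 ± 1.58), IL3RA (16.6 ± 0.301), CSF2RA (7.99 ± 0.119), IL5RA (3.43 ± 0.458), CSF3R (0.553 ± 0.0752), CSF1R (0.271 ± 0.0786) and FLT3. The libraries of neighbours in this order did not overlap. In the TF1-BAR cells KIT came first, and its libraries overlapped those of CSF2RB (56.1 ± 4.13 FPKM), so their order is not resolved. EPOR (26.6 ± 2.69), IL3RA (15.2 ± 1.94), CSF2RA (6.96 ± 0.448) and IL5RA (2.28 ± 0.251) kept their order, while CSF1R (1.33 ± 0.0185) came before CSF3R (1.02 ± 0.00158), without overlap. KIT rose from percentile 89.9 of the genes tested to percentile 96.2, and CSF1R from percentile 0.979 to 21.0. CSF1R passed the filter only through its level in the TF1-BAR cells. Its low percentile in the TF1-BA cells and its rise thus follow in part from the filter. The 9 genes summed to 126 and 122 FPKM in the TF1-BA libraries and to 167 and 170 FPKM in the TF1-BAR libraries, and KIT made up 22.6% and 20.8% of the sum in the sensitive and 35.1% and 35.0% in the resistant libraries.

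The shared beta chain outnumbered each of its partners in transcripts. The FPKM of CSF2RB was 6.04 and 5.56 times that of CSF2RA in the TF1-BA libraries and 8.89 and 7.31 times in the TF1-BAR libraries. Against IL3RA it was 2.91 and 2.67 times in the TF1-BA and 4.27 and 3.21 times in the TF1-BAR libraries. Against IL5RA the ratio was 12.7 and 14.5 in the TF1-BA and 28.1 and 21.6 in the TF1-BAR libraries. All 3 ratios were higher in both resistant libraries, with a higher mean of the beta chain and lower means of the alpha chains. The ratio of CSF2RB to the sum of the alpha chains went from 1.65 ± 0.0698 (SD, n = 2) to 2.32 ± 0.419 (n = 2). In contrast, the ratio of IL3RA to CSF2RA was 2.08 and 2.09 in the TF1-BA and 2.08 and 2.28 in the TF1-BAR libraries, which overlapped. The ratio of KIT to CSF2RB was 0.596 and 0.566 in the TF1-BA and 0.993 and 1.12 in the TF1-BAR libraries. With 2 libraries per line an exact two-sided permutation test of a ratio cannot give a p below 0.333, so these are descriptions.

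CSF2RA and IL3RA are neighbours in the region that the X and Y chromosomes share, and all its listed genes stand on chromosome X. Genes around the members were compared by the same fit, within 500 kb of each member. Of 84 such genes tested, other than the members, 4 were differentially expressed (4.76%, against 4.75% of all genes), 1 higher and 3 lower, a share near that of all genes. KDR, a receptor of vascular endothelial growth factor 338 kb from KIT, rose from 9.80 ± 0.141 to 40.5 ± 7.12 FPKM (log2 fold change 1.98, adjusted p = 0.00384 by limma). The kinase receptor PDGFRA, on the other side of KIT, had 0.165, 0.239, 0.124 and 0.115 FPKM and was not tested. P2RY8, a G protein-coupled receptor 79.9 kb from IL3RA, fell from 1.28 to 0.190 FPKM (log2 fold change −1.36, adjusted p = 0.0126). IL2RB, the interleukin 2 receptor beta chain, 185 kb from CSF2RB, fell from 4.51 to 1.69 FPKM (log2 fold change −1.20, adjusted p = 0.00981). RGL3, whose gene shares 2 exon bases with EPOR, fell from 2.46 to 0.612 FPKM (log2 fold change −1.42, adjusted p = 0.00694). No neighbour of IL5RA, CSF1R, CSF3R or FLT3 was called by limma, among 3, 11, 12 and 4 tested. Without TF1-BA replicate 2 the adjusted p was 0.0626 for P2RY8 and 0.0554 for RGL3, and without TF1-BAR replicate 2 it was 0.0546 for P2RY8, so that these calls were lost. The P2RY8 call was also lost with 1 FPKM added (log2 fold change −0.93), and P2RY8 passed the filter only through the sensitive line. The median log2 fold change of the members' chromosomes lay between −0.013 for chromosome 4, that of KIT, and 0.11 for chromosome 19, that of EPOR.

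Of the 9 genes for the ligands of these receptors, CSF1 alone was expressed well enough to be tested. CSF1, which encodes the ligand of CSF1R, had 13.8 and 12.1 FPKM in the TF1-BA libraries and 7.47 and 8.54 FPKM in the TF1-BAR libraries. The log2 fold change, −0.66 with a standard error of 0.107 (adjusted p = 0.0164 by limma), passed the p threshold but not that of the fold change, and stood opposite in direction to CSF1R. By limma no ligand passed both thresholds, where 4.75% of all genes did, and 1 had an unadjusted p under 0.05, where 42.2% did. Voom called 0 ligands and 7.34% of all genes. The stem cell factor gene KITLG had 7, 6, 0 and 2 fragments in the libraries in order, the GM-CSF gene CSF2 had 3, 3, 5 and 2, and the erythropoietin gene EPO had 2, 3, 1 and 0.

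Of 18 genes that carry the signal inward (kinases, STAT factors and adaptors), all tested, 0 passed both thresholds by limma or by voom, 10 had an unadjusted p under 0.05, as did 42.2% of all genes, and 6 an adjusted p under 0.05, 4 higher and 2 lower, where 26.9% of all genes did (16.3% higher and 10.5% lower). Their median log2 fold change was 0.077, against 0.066 over all genes. JAK2, the kinase bound to EPOR and the beta chain, had 15.4 and 13.2 FPKM in the TF1-BA libraries and 8.75 and 7.40 FPKM in the TF1-BAR libraries. At −0.79, with a standard error of 0.121 (adjusted p = 0.0139), its log2 fold change was the lowest of the list. STAT5A had 64.9 ± 1.56 and 68.7 ± 0.328 FPKM (log2 fold change 0.080, adjusted p = 0.332) and STAT5B 51.2 ± 0.700 and 53.9 ± 2.25 FPKM (0.073, adjusted p = 0.419), with the sensitive line first. Under upper-quartile scaling, which moved the median of all genes by −0.079, the values were −0.012 and −0.019, so no direction is given for either gene. YWHAZ, the adaptor with the highest level, had a log2 fold change of −0.20 (adjusted p = 0.0757).

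Among 14 negative regulators, 0 passed both thresholds by limma or by voom, 8 had an unadjusted p under 0.05, and 6 an adjusted p under 0.05. Of the 6, 5 were higher, and the median log2 fold change of the list was 0.27. Over all genes these shares were 42.2%, 26.9% and, for higher genes, 16.3%, and the median was 0.066. CISH, which is induced by STAT5 and binds cytokine receptors, had 14.1 and 12.5 FPKM in the TF1-BA and 17.2 and 19.7 FPKM in the TF1-BAR libraries (log2 fold change 0.46, standard error 0.103, adjusted p = 0.0338). PTPN1, a phosphatase and the gene of the list with the highest level, had a log2 fold change of −0.25 (adjusted p = 0.0964). Of 12 STAT5 target genes, 11 were tested, and 1 passed both thresholds by limma, IL2RA, which was lower. The share called over all genes was 4.75%. By the adjusted p alone, 4 were higher and 3 lower, against 16.3% and 10.5% of all genes, and the median log2 fold change of the list was 0.28, against 0.066. CISH and SOCS2 (adjusted p = 0.0465 by limma) stand in this list and in that of the negative regulators. Both count among the higher genes of each, so the lists are not separate. IL2RA, the interleukin 2 receptor alpha chain, fell from 2.45 ± 0.280 to 0.743 ± 0.108 FPKM (log2 fold change −1.25, standard error 0.147, adjusted p = 0.00884). Its call was lost without TF1-BA replicate 1 or without TF1-BA replicate 2, and that of IL2RB without TF1-BA replicate 2, where their adjusted p reached 0.0645 and 0.0626. The IL2RA call was also lost with 1 FPKM added (log2 fold change −0.98), and the IL2RB call without the filter on low values (adjusted p = 0.0501). The tested genes of its chromosome, 10, had a median of −0.35. PIM1, a kinase gene with the highest level of the list, had 216 ± 29.3 and 260.2 ± 11.3 FPKM (log2 fold change 0.28, adjusted p = 0.114).

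Other cytokine receptors and kinase receptor relatives differed in both directions. Of 30 genes, 29 were in the table and 21 were tested, of which 1 (KDR) rose and 2 (IL2RA and IL2RB) fell past both thresholds, with the values given above, where 4.75% of all genes were called. By the adjusted p alone 6 were higher and 7 lower, against 16.3% and 10.5% of all genes. IFNGR1, an interferon gamma receptor chain and the cytokine receptor with the highest level of the list, had a log2 fold change of 0.20 (adjusted p = 0.104). Over the list the median log2 fold change was −0.031, against 0.066 over all genes. PDGFRB, a relative of KIT and CSF1R, had between 3 and 7 fragments in each library.

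The libraries held from 15465497 to 18042299 fragments, recovered from the FPKM, and the log2 values of replicates correlated at 0.979 to 0.983 across genes. Markers of the labelled line were present, with GATA1 at 65.9 to 75.4 FPKM over the libraries. CD33 had 31.7 and 29.4 FPKM in the TF1-BA and 54.2 and 58.5 FPKM in the TF1-BAR libraries. Its log2 fold change of 0.87 (adjusted p = 0.00555 by limma) fell short of the fold change threshold. Cell type marker lists also held genes that differed between the lines. For comparison with each list below, 3.05% of all genes tested were called higher and 1.69% lower. By the adjusted p alone, 16.3% of all genes were higher and 10.5% lower. Of 8 myeloid progenitor genes, the list nearest to KIT and FLT3, 7 were tested, and CD34 was called higher (log2 fold change 1.17, adjusted p = 0.00409) and CD38 lower (−1.32, adjusted p = 0.00409). GATA2, the highest of that list, had a log2 fold change of 0.25 (adjusted p = 0.0339), and the list summed to 410 to 434 FPKM in the sensitive and 517 to 550 FPKM in the resistant libraries. Mast cells depend on KIT, and of 6 genes of mast cells and basophils, 4 (FCER1A, HDC, MS4A2 and CPA3) were called higher, where 3.05% of all genes were. CPA3, with 2 and 1 fragments in the sensitive and 14 and 16 in the resistant libraries, passed the filter only through the resistant line. The list summed to 66.1 to 68.7 FPKM in the TF1-BA and 130 to 134 FPKM in the TF1-BAR libraries, while TPSB2 had a log2 fold change of −0.74 (adjusted p = 0.00710). The MS4A2 call was lost without TF1-BA replicate 1 (adjusted p = 0.0867), without TF1-BA replicate 2 (0.0728) and without TF1-BAR replicate 1 (log2 fold change 0.88), and also with 1 FPKM added (0.87), under quantile normalization (0.96) and without the filter (adjusted p = 0.0693). Of 7 eosinophil genes, a type that depends on IL5RA, 3 were tested and PRG3 was called lower (log2 fold change −1.49, adjusted p = 0.0298), while PRG2 and SIGLEC8 had log2 fold changes of −0.58 (adjusted p = 0.0480) and 0.49 (adjusted p = 0.0486), in opposite directions. The PRG3 call was lost when TF1-BA replicate 1 was left out (adjusted p = 0.108), and also when either of the resistant libraries was (0.0608 without the first and 0.121 without the second), as well as without the filter (0.109) and without a trend of the spread (0.0501). The eosinophil list had a sum of 5.03 to 6.47 FPKM in the TF1-BA and 3.38 to 3.68 FPKM in the TF1-BAR libraries. Of 6 monocyte genes, a type that carries CSF1R, 1 was tested and 0 called by limma, with 0 at an unadjusted p under 0.05 and 0 by voom, LYZ being the tested gene (log2 fold change 0.16, adjusted p = 0.209), and CD14 had at most 1 fragment in any library. Of 9 erythroid genes, which accompany EPOR, 1 (GYPB) was called higher and 2 lower, HBA1 (log2 fold change −2.29, adjusted p = 0.00182) and HBA2 (−3.43, adjusted p = 0.00108). The list summed to 270 to 272 FPKM in the sensitive and 159 to 174 FPKM in the resistant libraries. GYPB, with 2 and 4 fragments in the sensitive libraries, passed the filter only through the resistant line, and reads of near-identical gene copies may have been split between them. Of 3 megakaryocyte genes tested, 1 (GP1BA) was called higher, and the list summed to 136 to 145 FPKM in the sensitive and 189 to 211 FPKM in the resistant libraries, most of it from ITGA2B (log2 fold change 0.43, adjusted p = 0.0204). Of 4 lymphoid genes tested, CD3D was called lower (−1.64, adjusted p = 0.00282), while CD79A and NKG7 had log2 fold changes of 0.61 (adjusted p = 0.0260) and 0.39 (adjusted p = 0.0254). The lymphoid list summed to 31.6 to 32.8 FPKM in the sensitive and 22.1 to 22.4 FPKM in the resistant libraries, with CD3E at no more than 1 fragment. Of 2 endothelial and stromal genes tested, CDH5 was called higher (1.70, adjusted p = 0.00409) and PECAM1, the highest, had a log2 fold change of 0.059 (adjusted p = 0.593), and the list summed to 24.6 FPKM in both sensitive libraries and 26.9 to 29.5 FPKM in the resistant ones. The part of these cell type genes in the receptor differences was not tested.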

How the data were processed

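The authors sequenced RNA of 2 libraries per line, mapped the reads to GRCh38 with TopHat 2.0.13 and ran Cufflinks and Cuffdiff 2.2.0 with default parameters, and deposited FPKM values per gene and library. The annotation release is not given in the sources used here. Library sizes and fragments were recovered as the numbers that make each gene's FPKM whole (within 0.001 fragments) at a GENCODE 44 exon length (14220 genes) or a fitted one (16632), out of 30853 genes above 0, with 3 of 300 whole under wrong sizes. A fitted length is the smallest possible, so fragments could be a multiple. Recovered fragments and the intervals on them cover counting error only. The main test was limma 3.58.1 (R 4.3.3, eBayes with trend) on log2(FPKM + 0.5) because FPKM are not counts, in place of the count model named in the paper. It was tested on simulated data. Members were all named, and from other lists the genes past both thresholds, the highest, and a fixed few. The members and lists were chosen with earlier results of these data known. Alternatives changed the pseudocount, filter, scaling, spread, block and libraries. Of the lists, 2 genes are not reported here and are left out of their lists' counts.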

Additional observations from a re-analysis of the deposited data

How the results depend on the processing

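KIT kept its call under all 16 alternatives, and none of the log2 fold changes of the 8 members reversed. The number of differentially expressed members was 1 (KIT) in place of 2 with 1 FPKM added and with a mean of at least 1 FPKM, where CSF1R was not tested, and 1 to 2 when a library was left out. The number with an adjusted p under 0.05 was 4 with the replicate block (CSF2RB and EPOR added), 6 with limma voom, 5 with a mean of at least 10 fragments, and 1 to 2 when a library was left out. The same number was 3 with 0.1 FPKM added, upper-quartile scaling, quantile normalization and robust eBayes, each adding IL5RA, lower. It was also 3 with FPKM rescaled to the same sum per library (CSF2RB added) and without a trend of the spread (CSF3R added). With a mean of at least 1 FPKM the 2 were KIT and IL5RA. The voom fit and the minimum of 10 fragments were chosen after seeing the data. The replicate numbers come from the titles alone, and deviations of same-numbered libraries correlated at 0.0646 across 15519 genes. Called STAT5 targets were 0 with 1 FPKM added and 0 to 1 without a library, called negative regulators 0 to 1 (SOCS1 without TF1-BAR replicate 1), and called other receptors 6 with 0.1 FPKM added, 5 with upper-quartile scaling and with quantile normalization, and 7 with voom, in place of 3. CSF1R had log2 fold changes of 0.88 with 1 FPKM added and 1.15 to 1.35 without a library. Over all genes, 487 were called with 1 FPKM added, 1139 with voom and 429 to 794 without a library, in place of 737. The causes of these moves were not tested. CSF1R and CSF3R rest on 20 to 139 fragments per library.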

Other observations

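Outside the rule for named genes, and chosen after their values were seen, a few cytokine pathway genes stood out. IL7R, the interleukin 7 receptor alpha chain of lymphoid cells, was below the filter on low values. Its fragments numbered 53 and 42 in the sensitive libraries and 0 in each resistant library, which is at least 15.0-fold lower against a floor of 3 fragments per library. SOCS1, an inhibitor of JAK kinases, had 4.89 and 5.17 FPKM (108 and 98 fragments) in the sensitive line. It had 5.75 and 12.1 FPKM (111 and 238 fragments) in the resistant line, so that most of its higher mean came from TF1-BAR replicate 2. Its log2 fold change was 0.68 (adjusted p = 0.185 by limma). SOCS3, a further inhibitor of the same kinases, had 16.4 and 13.1 FPKM in the sensitive and 25.3 and 27.8 FPKM in the resistant line (log2 fold change 0.83, adjusted p = 0.0129). LEPR, the leptin receptor, and IL15RA had log2 fold changes of −0.99 (adjusted p = 0.00675) and −0.96 (adjusted p = 0.00901), just short of the fold change threshold.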
